A study of Homo sapiens with 15 samples.

Results

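Elesclomol was given with bortezomib either from the start of treatment (simultaneous combination) or only after 14 days of the study (delayed combination), and the tumour-bearing marrow of 3 mice on each schedule was compared. These 6 libraries, chosen by the column names of their count files, are 6 of the 15 in the series. The other 9 came from mice given PBS, bortezomib alone or elesclomol alone, 3 libraries each. All mice were SCID-beige, a strain without functional B and T cells, and carried MM.1S gfp+/luc+, an established human multiple myeloma line marked with a fluorescent protein and luciferase, injected into a vein. Both schedules, and the groups of a single drug, used bortezomib at 0.25 mg/kg into the peritoneum once a week and elesclomol at 25 mg/kg under the skin, and 5 mice were assigned to each group. Treatment went on until the animal died or had to be killed for paralysis or severe toxicity. Femurs were flushed at paralysis, so the day of collection was set by each animal, and how many days each mouse had received elesclomol was not given in the labels. The age of the mice was not given either.

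The pellet is a mixture of human tumour and mouse marrow cells, and in such bulk samples fewer cells of a type and less RNA per cell cannot be told apart. The labels state that 3 tumours were examined for each condition. Counts per library summed to between 6448673 and 9227140 in the simultaneous group and to between 11060930 and 13161087 in the delayed group, which was sequenced the most deeply of the 5 groups. The human myeloma identity of the samples could be checked against its markers. Of 15 plasma cell and myeloma markers, 14 were expressed above the filter on low counts, and together they summed to between 14386 and 16214 CPM (counts scaled to each library's normalized size) in the simultaneous libraries and to between 15761 and 17512 CPM in the delayed libraries. The joining chain gene JCHAIN alone lay between 7204 and 9766 CPM in these 6 libraries. PAX5, a transcription factor of earlier B cells, lay at or below 0.442 CPM. The 8 listed B cell markers, PAX5 among them, were not absent as a set, and 3 passed the filter. They summed to between 46.3 and 63.9 CPM in the simultaneous and to between 32 and 54.4 CPM in the delayed libraries.

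Bortezomib blocks the chymotrypsin-like site of the 20S proteasome, and myeloma cells, which secrete large amounts of immunoglobulin, respond to it through the unfolded protein response, the heat shock response and the ATF4 pathway. Elesclomol carries copper into mitochondria, where the metal is reduced by the ferredoxin FDX1, burdens lipoylated enzymes and the respiratory chain, and produces reactive oxygen species. Comparing the schedules addresses whether tumours that first met bortezomib alone differ at the end from tumours that met both drugs together.

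No gene passed the threshold between the schedules. Of 13085 genes tested with edgeR's quasi-likelihood F test over all 15 libraries, 0 (0%) had a Benjamini-Hochberg adjusted p under 0.05, and the adjusted p was 1 for every gene. DESeq2 and limma voom also called 0 genes, with 243 and 1039 at an unadjusted p under 0.05. At an unadjusted p under 0.05 there were 344 genes (2.63%), of which 143 (1.09%) were higher and 201 (1.54%) lower in the delayed group. Single genes are given below with the unadjusted 95% interval of their log2 change from this fit, and an interval that leaves out 0 is not a call. The 3 delayed libraries all lay above the 3 simultaneous ones for 463 genes (3.54%) and all below them for 530 (4.05%). Over all genes tested, 6377 lay above 0 (48.7%), with a median log2 change, delayed minus simultaneous, of -0.0047.

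Tumours of the same schedule differed from each other about as much as tumours of different schedules. Over the 9008 genes with at least 3 log2 CPM, the median absolute log2 difference between a simultaneous and a delayed library was between 0.109 and 0.232 in the 9 possible pairs, with a median of 0.165. Pairs within the simultaneous group lay between 0.164 and 0.294, and pairs within the delayed group between 0.146 and 0.184. The most alike pair across the schedules, at 0.109, was closer than any pair within either group. PBS libraries were closer to each other, between 0.106 and 0.130.

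**Figure D1:**
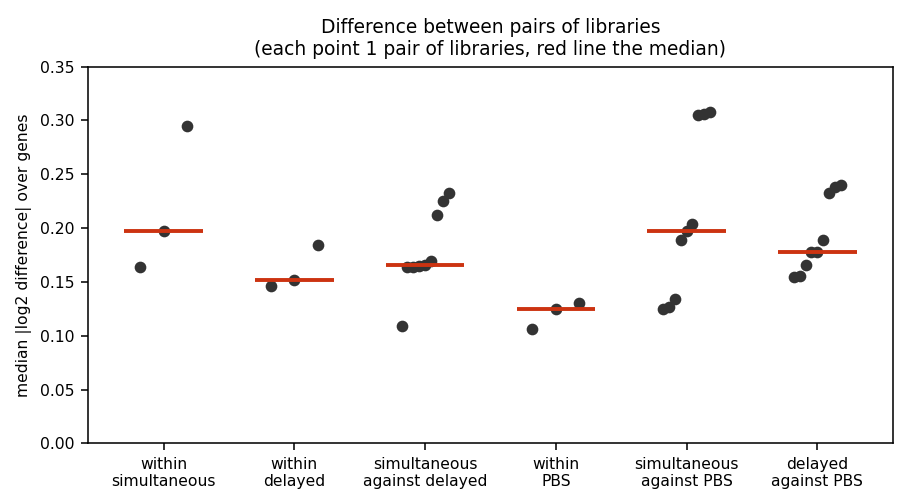
Each point is 1 pair of libraries and its height the median absolute log2 difference over 9008 genes. Points are grouped by whether both libraries came from the same group, and red lines mark the median of each class. The 9 pairs across the schedules (median 0.165) cover the range of the pairs within the delayed group (0.146 to 0.184) and reach below those of the simultaneous group (0.164 to 0.294).

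The precision of the comparison is described here by unadjusted standard errors and intervals. A call also has to pass the adjusted p over 13085 genes. An interval within 2-fold therefore does not mean that a 2-fold change would have been called. The standard error of a log2 change had a median of 0.174. For 10786 genes (82.4%) the 95% confidence interval of the change lay within 2-fold in either direction, and for 7630 (58.3%) within 1.5-fold. Precision followed the expression level, as the 2-fold bound held for 96.2% of genes at 5 log2 CPM or more and for 17.5% of those under 1 log2 CPM. The median absolute log2 change between the schedules was 0.109. For comparison, from the same fit, it was 0.188 for the delayed and 0.204 for the simultaneous combination against PBS. Both values share the PBS libraries, and neither comparison called a gene (0% each, with 1447 and 1784 genes at an unadjusted p under 0.05). Against bortezomib alone the medians were 0.107 for the delayed and 0.123 for the simultaneous combination, again with 0% called in each, and with 460 and 554 genes at an unadjusted p under 0.05.

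**Figure D2:**
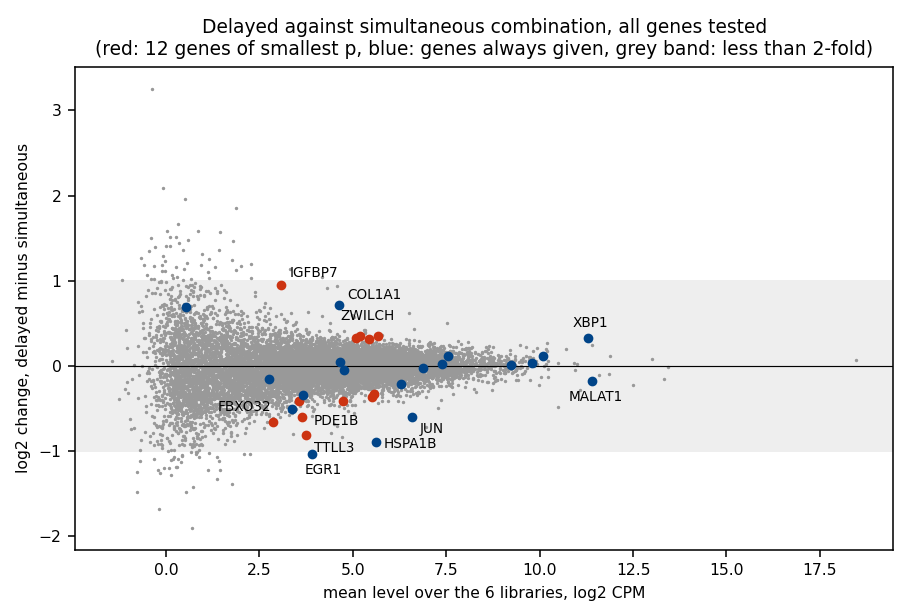
Log2 change (delayed minus simultaneous, vertical axis) against the mean level over the 6 libraries in log2 CPM (horizontal axis) for the 13085 genes tested. Red points are the 12 genes with the smallest p at 3 log2 CPM or more, blue points the genes given whatever their change, and the grey band spans 2-fold. XBP1, at 0.32, is the highest-expressed of the labelled genes above the centre line.

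The genes described next were chosen by smallest p at 3 log2 CPM or more, and none was near the threshold. TTLL3, which encodes a tubulin glycine ligase, had 8.37, 11.1 and 9.73 CPM in the delayed libraries and 15.2, 20 and 16.1 CPM in the simultaneous ones. All 3 delayed libraries were lower, with no overlap, and the log2 change was -0.81 (95% interval -1.18 to -0.435). TTLL3 overlaps a read-through transcript with its neighbour ARPC4, so how its reads were assigned is uncertain. PDE1B, a calcium- and calmodulin-dependent phosphodiesterase, had 9.87, 10.7 and 9.57 CPM in the delayed libraries and 16.1, 15.8 and 13.6 CPM in the simultaneous ones. It too was lower in every delayed library, by a log2 change of -0.60 (95% interval -0.90 to -0.295).

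MLXIP encodes the glucose-sensing transcription factor MondoA, and its level was 37.9, 41.3 and 41.1 CPM in the delayed group against 49.5, 52.8 and 52.8 CPM in the simultaneous group. The simultaneous libraries stood above PBS (37.9, 39.3 and 41.0 CPM), and the delayed libraries were close to it. The log2 change was -0.37 (95% interval -0.58 to -0.15). ZWILCH, a component of the kinetochore complex that serves the mitotic checkpoint, showed the opposite order, with 43.1, 41.1 and 39.4 CPM in the delayed and 29.2, 35.2 and 32.6 CPM in the simultaneous libraries. Its simultaneous libraries lay below all 12 others, and the log2 change between the schedules was 0.35 (95% interval 0.145 to 0.56). GGCT, an enzyme of glutathione breakdown, was also higher in all delayed libraries, at 48.4, 47.9 and 47.7 CPM against 38.9, 41.2 and 35.4 CPM.

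RRAGD, a Rag GTPase that links amino acids to mTORC1, had 61.5, 51.6 and 59.0 CPM in the delayed and 40.8, 50.2 and 44.2 CPM in the simultaneous libraries. Its groups did not overlap, and the log2 change was 0.35 (95% interval 0.13 to 0.57). CISD1, which encodes the outer mitochondrial membrane iron-sulfur protein mitoNEET, had 33.7, 41.1 and 38.1 CPM on the delayed and 29.5, 31.0 and 29.6 CPM on the simultaneous schedule. The groups did not overlap, and the change was 0.33 (95% interval 0.12 to 0.53). The pacemaker channel gene HCN3 (-0.66), UBALD1 (-0.41) and PRR12 (-0.405) were lower in each delayed library. IGFBP7, a secreted insulin-like growth factor binding protein, had the largest change of the 12, with 8.20, 13.4 and 12.2 CPM against 5.74, 4.06 and 7.62 CPM. That change was 0.95, with a wide 95% interval from 0.35 to 1.55. All 12 genes, chosen for their p in this comparison, had groups that did not overlap, and they kept their sign in the other settings run, 21 for HCN3 and IGFBP7 and 22 for the rest.

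**Figure D3:**
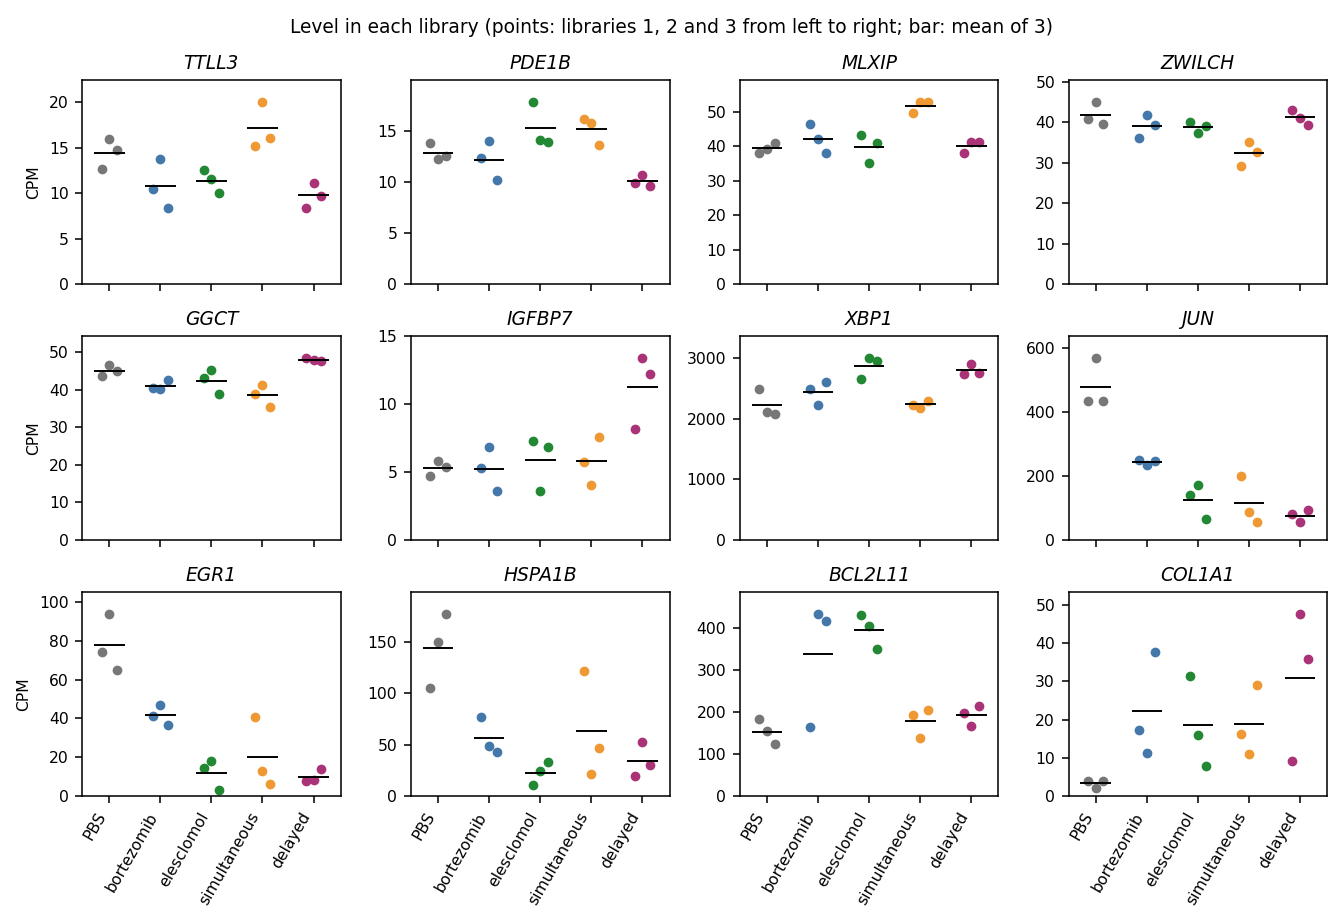
CPM of 12 genes in each of the 15 libraries, with points for libraries 1, 2 and 3 from left to right in each group and a bar at the mean of 3. TTLL3, PDE1B, MLXIP, ZWILCH, GGCT, IGFBP7 and XBP1 separate the schedules, and JUN, EGR1, HSPA1B, BCL2L11 and COL1A1 overlap.

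XBP1 encodes the transcription factor that drives secretory capacity in plasma cells and carries out the IRE1 branch of the unfolded protein response. It was among the most highly expressed genes, with 2736, 2903 and 2753 CPM in the delayed libraries and 2231, 2181 and 2293 CPM in the simultaneous ones. Every delayed library was higher, and the spread within each group was small beside the gap. The log2 change was 0.32 (95% interval 0.10 to 0.545), and it lay between 0.285 and 0.354 over the 22 other settings. PBS libraries had 2489, 2114 and 2078 CPM, and libraries of elesclomol alone 2646, 2996 and 2957 CPM, so the simultaneous level was near PBS and the delayed level within the range of elesclomol alone. Libraries of bortezomib alone had 2491, 2228 and 2609 CPM. Against these the delayed change was 0.196 (95% interval -0.025 to 0.417) and the simultaneous change -0.128 (95% interval -0.349 to 0.093). Gene counts do not separate the spliced from the unspliced XBP1 transcript.

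Most genes of the endoplasmic reticulum (ER) stress list, to which XBP1 belongs, lay below 0. Of its 26 members, all tested, 6 lay above 0 and 20 below, with a median log2 change of -0.10, beside 48.7% above 0 and a median of -0.0047 over all genes. SYVN1, the ubiquitin ligase of ER-associated degradation, had 88.1, 97.6 and 107 CPM in the delayed libraries and 132, 102 and 131 CPM in the simultaneous ones. Delayed library 3 lay above simultaneous library 2, so the groups overlapped, and its change was -0.315 (95% interval -0.56 to -0.07). DERL1, a channel component of the same degradation route, and the disulfide isomerase PDIA3 had changes of -0.15 and -0.21. The lower median rested on simultaneous library 3, which held the highest value of the 6 libraries for 13 of the 26 genes. Without it the list stood at 13 above and 13 below 0, with a median of 0.

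XBP1 shares a promoter element with other members of the list, and 4 of these promoters are shown so that genes with the same element and different changes can be compared. The ER stress response element, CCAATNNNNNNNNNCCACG, was searched on both strands in the 250 bases before the start of each gene (RefSeq promoters, GRCh38.p14), where N is any base. It occurred in 22 of 27305 promoters (0.081%) and in 6 of the 23 promoters matched to the ER stress list (26.1%), those of XBP1, HSPA5, HSP90B1, CALR, CANX and CRELD2. Each of the 4 has 1 match, marked in capitals, and each sequence is read 5′ to 3′ on the strand of its gene. XBP1 lies on the minus strand at chr22:28800570-28800819, with the match starting 52 bases before the gene's start. HSPA5, on the minus strand at chr9:125241344-125241593, has it 66 bases before the start. CALR, on the plus strand at chr19:12938359-12938608, and CRELD2, on the plus strand at chr22:49918384-49918633, carry it in the reverse orientation, beginning 225 and 80 bases before the start.
XBP1: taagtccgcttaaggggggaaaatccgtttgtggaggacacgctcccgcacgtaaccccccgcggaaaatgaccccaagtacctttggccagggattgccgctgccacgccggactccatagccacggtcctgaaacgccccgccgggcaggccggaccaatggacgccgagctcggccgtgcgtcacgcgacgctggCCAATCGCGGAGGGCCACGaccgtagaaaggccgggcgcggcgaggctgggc
HSPA5: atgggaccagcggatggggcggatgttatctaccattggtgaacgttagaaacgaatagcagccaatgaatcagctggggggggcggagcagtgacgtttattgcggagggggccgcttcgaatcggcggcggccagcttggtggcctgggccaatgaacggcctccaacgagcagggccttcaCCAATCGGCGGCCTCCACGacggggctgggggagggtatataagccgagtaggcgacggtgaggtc
CALR: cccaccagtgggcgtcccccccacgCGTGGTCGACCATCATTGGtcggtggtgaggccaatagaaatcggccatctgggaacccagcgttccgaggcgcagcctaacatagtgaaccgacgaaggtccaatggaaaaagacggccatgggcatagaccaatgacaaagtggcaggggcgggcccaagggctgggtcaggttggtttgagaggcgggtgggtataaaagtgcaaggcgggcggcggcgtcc
CRELD2: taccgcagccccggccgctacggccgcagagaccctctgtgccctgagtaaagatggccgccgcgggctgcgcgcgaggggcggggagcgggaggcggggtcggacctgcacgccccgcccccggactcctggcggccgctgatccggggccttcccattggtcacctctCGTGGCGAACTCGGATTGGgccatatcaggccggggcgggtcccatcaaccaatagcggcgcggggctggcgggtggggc

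With the same element in the window, the changes of these 6 genes ranged from -0.18 (HSPA5) to 0.32 (XBP1). HSPA5, the ER chaperone BiP, had 220, 255 and 257 CPM on the delayed and 279, 230 and 323 CPM on the simultaneous schedule. The groups overlapped, and the log2 change was -0.18 (95% interval -0.80 to 0.43). The lectin chaperones CALR (0.02) and CANX (0.03), the chaperone HSP90B1 (0.03) and the ER protein CRELD2 (-0.17) overlapped as well, so XBP1 alone of the 6 had groups that were apart. A match of the element is a description of the sequence, not a bound site.

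The proteasome, the target of bortezomib, was at nearly the same level on both schedules. PSMB5, the subunit that bortezomib binds, had 22.4, 32.6 and 25.7 CPM in the delayed libraries and 31.6, 23.0 and 28.7 CPM in the simultaneous ones. The ranges overlapped, with a log2 change of -0.05 (95% interval -0.42 to 0.33). Of the 13 genes of the 20S core, 9 lay above 0 (median 0.015), and of the 18 of the 19S regulator 14 did (median 0.044). For all 13 and all 18 of these genes the 95% interval of the change lay within 2-fold. Among 17 genes that restore proteasome levels after inhibition or assemble the particle, 12 lay above 0 (median 0.037). The direction of these medians rested on single libraries. Without simultaneous library 2 they were -0.053 for the core, -0.033 for the regulator and -0.007 for the restoring genes, and without delayed library 2 they were -0.054 for the core and -0.008 for the regulator.

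Heat shock genes gave no common direction. HSPA1B, an inducible HSP70 chaperone whose reads cannot be separated with certainty from its near-identical copy HSPA1A, had 19.7, 52.9 and 30.2 CPM on the delayed and 122, 21.6 and 46.6 CPM on the simultaneous schedule. Only simultaneous library 1 was high, and the log2 change of -0.90 (95% interval -2.14 to 0.35) was 0.001 without that library. Of 25 heat shock genes tested, 16 lay above 0 (median 0.054). FKBP4, a co-chaperone of HSP90, had the smallest p of the list and 70.0, 80.9 and 75.5 CPM against 69.7, 59.8 and 59.1 CPM. Its groups were only just apart, with a change of 0.26 (95% interval 0.00 to 0.52).

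In the ATF4 pathway, which answers amino acid shortage and ER stress, 14 of 23 genes lay above 0 (median 0.064). The median was -0.077 without simultaneous library 2 and -0.101 without delayed library 1. The levels of ATF4 itself were 119, 118 and 113 CPM in the delayed and 148, 96.7 and 111 CPM in the simultaneous group. DDIT3, the proapoptotic factor CHOP, overlapped likewise, at 6.44, 8.11 and 4.86 against 8.51, 6.76 and 6.07 CPM. PPP1R15A, the phosphatase subunit GADD34 that ends the block of translation, was lower, with 15.1, 18 and 19.1 CPM against 42.5, 20.1 and 20.5 CPM (log2 change -0.69, 95% interval -1.27 to -0.11). Simultaneous library 1 was again the high one. XPOT, which exports transfer RNA from the nucleus, went the other way in every library, with 167, 168 and 170 CPM against 142, 148 and 152 CPM (0.19, 95% interval 0.03 to 0.35).

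Genes that handle copper and its stress were close on both schedules. FDX1, which reduces elesclomol-bound copper, had 25.3, 25.0 and 27.2 CPM with delayed and 23.3, 23.1 and 28.2 CPM with simultaneous elesclomol. These ranges overlapped, and the log2 change was 0.05 (95% interval -0.20 to 0.305). Of 13 tested genes of FDX1 and protein lipoylation 11 lay above 0 (median 0.066), with the pyruvate dehydrogenase subunits DLAT (0.12) and PDHA1 (0.13) and the lipoyl synthase LIAS (0.20) among them. Without both simultaneous library 1 and delayed library 2, 8 lay above and 5 below 0 (median 0.048). Of 13 copper-handling genes 9 lay above 0 (median 0.042). COX17, the chaperone that brings copper to cytochrome c oxidase, had 23.5, 25.2 and 24.2 CPM against 20.5, 18.9 and 21.5 CPM. All delayed libraries were higher, with a change of 0.26 (95% interval 0.02 to 0.49).

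Metallothioneins, which bind excess copper and zinc, were too low to compare. MT2A lay at or below 0.331 CPM in the 6 libraries, and 4 of the 11 listed genes had 0 counts in all 15. The 2 members that could be tested, the metal-responsive factor MTF1 (-0.15) and the zinc exporter SLC30A1 (-0.05), overlapped between the schedules. Of 21 tested antioxidant genes under NRF2, 17 lay above 0, with a median of 0.11. TXNRD1, thioredoxin reductase, had 213, 229 and 197 CPM against 204, 173 and 191 CPM, and its groups overlapped (0.17, 95% interval -0.04 to 0.38). The list median rested on single libraries. Delayed library 2 held the highest value for 11 of the 21 genes, and without it the median was 0.016. Simultaneous library 2 held the lowest value for 14 of them, and without it the median was 0.027. HMOX1, the haem oxygenase that is a hallmark of the response, lay between 0.752 and 2.73 CPM.

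Genes of mitochondrial DNA had higher values on the delayed schedule, and 0 of the 13 reached an unadjusted p under 0.05. Nuclear copies of mitochondrial sequence can take some of their reads, so single values are uncertain. All 13 protein genes of mitochondrial DNA lay above 0, with a median log2 change of 0.22 and a range over the settings of 0.145 to 0.324. MT-CO1, the catalytic subunit of cytochrome c oxidase, had 2876, 3005 and 2861 CPM in the delayed and 2206, 2932 and 2234 CPM in the simultaneous libraries. Simultaneous library 2 lay within the delayed range, and the change was 0.25 (95% interval -0.15 to 0.64). In MT-ND4, of complex I, the same library stood apart from its group, at 1335 CPM beside 958 and 924 CPM, and the delayed libraries had 1261, 1399 and 1205 CPM. These 13 transcripts come from the same polycistronic precursors, so they are not independent of each other. Both schedules lay below PBS in this list, with a median of -0.25 for the delayed and of -0.475 for the simultaneous combination.

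Nuclear genes of the respiratory chain showed a smaller difference. For complex I 31 of 38 genes lay above 0 (median 0.077), for complexes II to V 31 of 38 (0.065), and for the mitochondrial ribosome 35 of 45 (0.082). UQCRB, a subunit of complex III, had 29.8, 32.9 and 35.7 CPM against 25.7, 28.9 and 26.4 CPM (0.28, 95% interval 0.01 to 0.56), with no overlap. IDH3A, of the citric acid cycle, had 57.4, 65.3 and 61.0 CPM against 51.6, 55.0 and 47.6 CPM (0.25, 95% interval 0.07 to 0.44). Its groups were apart too. Simultaneous library 2 held the lowest value for 23 of the 38 complex I genes, and without it the list stood at 20 above and 18 below 0, with a median of 0.018. For complexes II to V it was lowest for 33 of 38 genes, and without it 14 lay above and 24 below 0, with a median of -0.016. In the mitochondrial ribosome list the same library was lowest for 28 of 45 genes. Without it 27 lay above and 18 below 0, with a median of 0.022.

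DNA synthesis genes gave the most one-sided count among the lists of nuclear genes with 10 or more tested members. Of 29 genes, 28 lay above 0, with a median log2 change of 0.13 that stayed between 0.096 and 0.198 over the settings. The list's mean level was 6.009, 5.981 and 5.826 log2 CPM in the delayed libraries. In the simultaneous ones it was 5.913, 5.758 and 5.728 log2 CPM, so the schedules overlapped. Delayed library 1 held the highest value for 13 of the 29 genes, and simultaneous libraries 2 and 3 the lowest for 13 and 11. PRIM1, the DNA primase subunit, had 23.9, 23.1 and 20.6 CPM in the delayed and 20.1, 18.6 and 17.6 CPM in the simultaneous group (0.26, 95% interval 0.01 to 0.51), and its groups did not overlap. CDC45 (0.29) and the helicase subunit MCM4 (0.20) overlapped. Against PBS the list's median was 0.11 for the delayed and -0.01 for the simultaneous combination. The delayed libraries were the deeper ones. With every library above 6448673 counts thinned to that number, 25 of the 29 genes lay above 0, with a median of 0.131. Of the genes of G2 and mitosis 15 of 27 lay above 0 (median 0.015), and the median was -0.031 without simultaneous library 3 and -0.063 without delayed library 1.

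Growth genes lay close together. MYC, an oncogene of myeloma, had 586, 549 and 662 CPM in the delayed and 653, 527 and 610 CPM in the simultaneous libraries, with a change of 0.006 (95% interval -0.27 to 0.29). Of 53 cytosolic ribosomal protein genes 36 lay above 0 (median 0.030). Simultaneous library 2 was lowest for 47 of them, and without it 7 lay above and 46 below 0 (median -0.065). Without delayed library 3 the count was 23 above and 30 below (median -0.004). Of 23 genes of nucleolar ribosome assembly 17 lay above 0 (median 0.072), and without simultaneous library 2 the count was 14 above and 9 below (median 0.034).

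**Figure D4:**
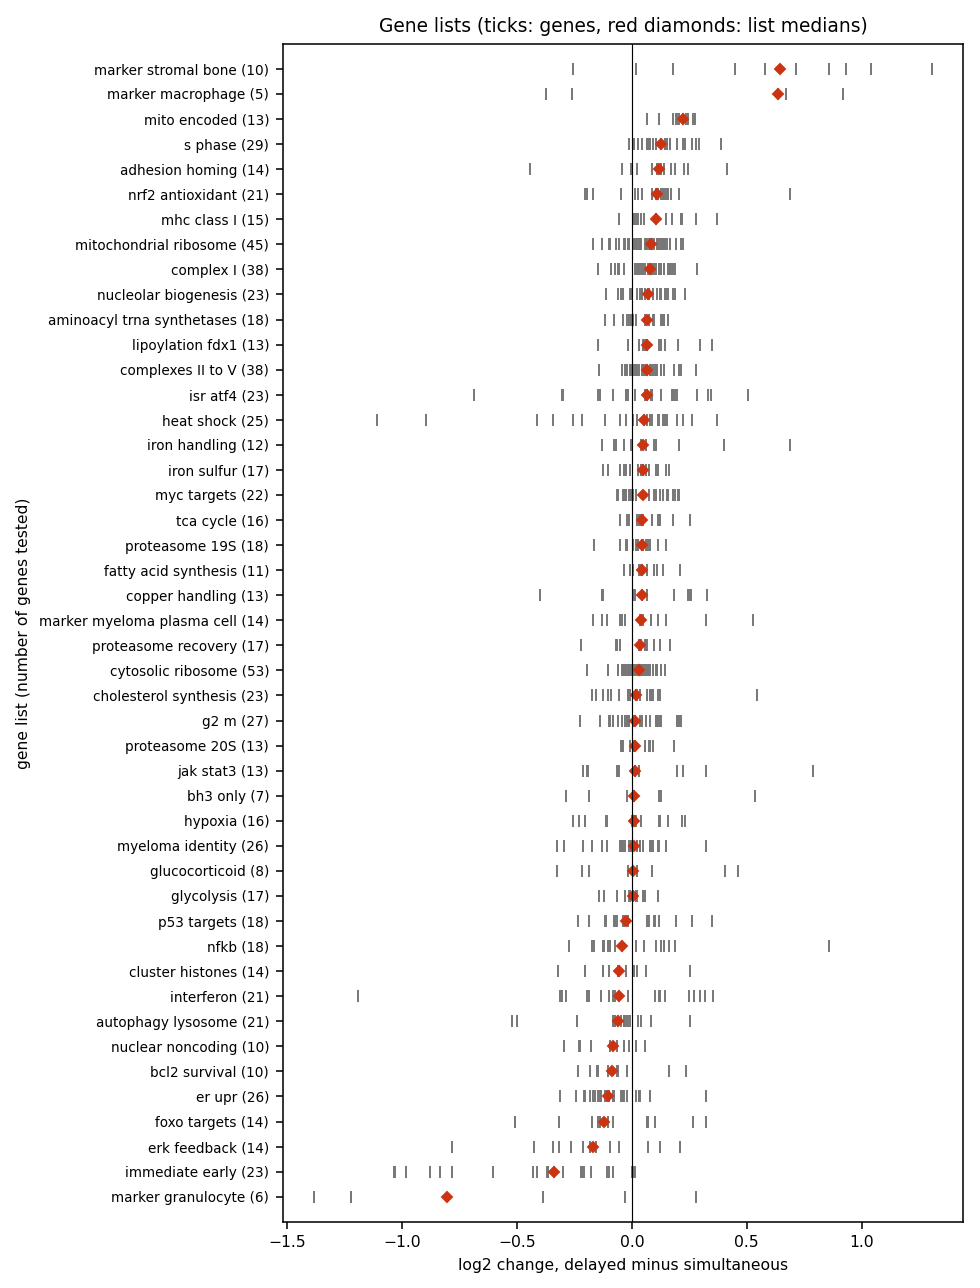
Log2 change (delayed minus simultaneous, horizontal axis) of every tested gene in the lists with at least 5 tested genes, as grey ticks, with the list median as a red diamond. Most medians lie near 0, and the stroma and bone, macrophage, immediate early and granulocyte lists have the medians farthest from it.

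Immediate early genes, induced within minutes of a stimulus and many of them transcription factor genes, had the most negative median of the lists with 10 or more tested genes. Of 23 tested members 3 lay above 0 and 20 below, with a median of -0.34. JUN had 79.9, 54.8 and 93.1 CPM in the delayed libraries and 200, 88.1 and 57.6 CPM in the simultaneous ones. EGR1 had 7.61, 8.11 and 14.1 CPM against 40.7, 13.1 and 6.49 CPM. In both genes only simultaneous library 1 was high and the groups overlapped, and the changes were -0.60 (95% interval -1.51 to 0.305) and -1.04 (95% interval -2.37 to 0.30). ZFP36, which destabilises such messages, repeated the pattern, with 42.2, 34.9 and 44.4 CPM against 70.4, 38.3 and 44.5 CPM.

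This lean rested on 1 library. Simultaneous library 1 held the highest value for 19 of the 23 genes (82.6%), beside 24.2% of all genes tested. Its mean over the list was 4.77 log2 CPM, whereas the other 5 libraries lay between 3.785 and 3.99 log2 CPM. Without it, 14 genes lay above and 9 below 0, and the median turned to 0.06. Both schedules were lower than PBS, where JUN had 433, 567 and 434 CPM, and the list medians against PBS were -1.39 for the delayed and -1.01 for the simultaneous combination. The feedback genes of the ERK pathway followed, with 4 of 14 above 0 (median -0.17). DUSP2, an ERK phosphatase, had 9.29, 13.6 and 10.9 CPM against 20.1, 11.1 and 11.2 CPM, and without simultaneous library 1 the ERK list median was 0.08.

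**Figure D5:**
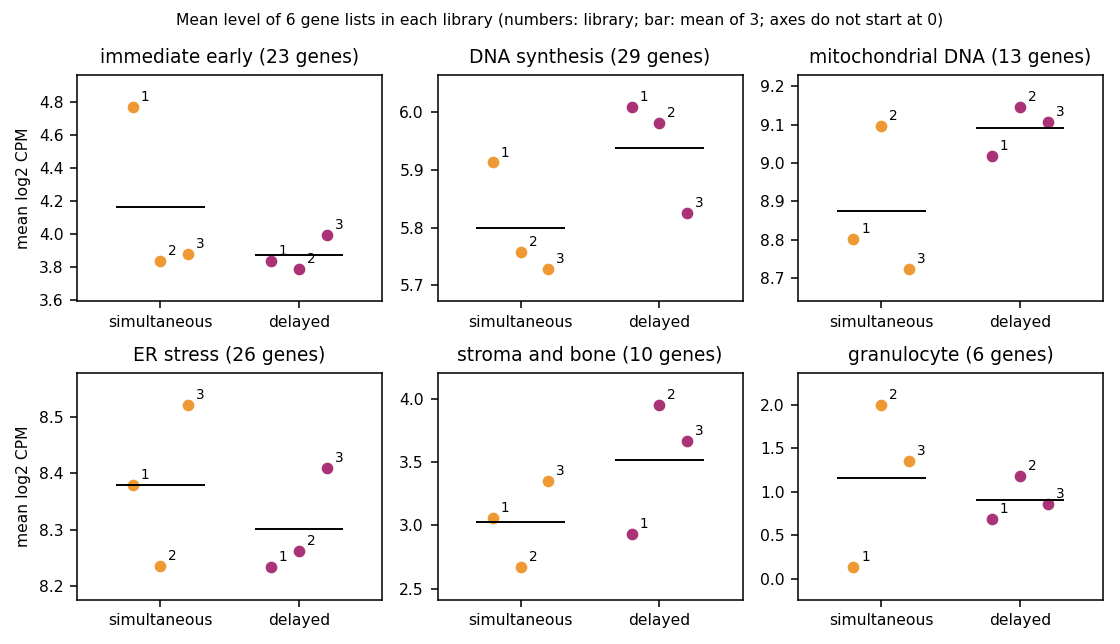
Mean log2 CPM over the tested genes of 6 lists in each of the 6 libraries, numbered by library, with a bar at the mean of 3. Simultaneous library 1 is alone at 4.77 in the immediate early list, where the others lie between 3.785 and 3.99. In the stroma and bone list delayed library 2 is highest, at 3.95.

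Cell death genes overlapped for the most part. BCL2L11, which encodes the proapoptotic protein BIM, had 198, 168 and 215 CPM in the delayed and 192, 138 and 206 CPM in the simultaneous libraries. The schedules covered each other, with a change of 0.12 (95% interval -0.52 to 0.76), and both stood below the 3 libraries of elesclomol alone at 432, 404 and 350 CPM. PMAIP1, the proapoptotic NOXA that bortezomib is known to induce in myeloma cells, had 8.03, 8.29 and 5.67 CPM against 5.86, 4.81 and 4.38 CPM. Its change was 0.54 (95% interval 0.07 to 1.00), but delayed library 3 lay below simultaneous library 1. Of the 10 tested BCL2-type survival genes 2 lay above 0 (median -0.085). Without delayed library 1 the count was 5 above and 5 below (median -0.043), and without simultaneous library 1 it was 4 above and 6 below (median -0.058).

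Autophagy and FOXO target genes leaned lower. ULK1, the kinase that starts autophagy, had 7.87, 9.02 and 10.3 CPM on the delayed and 13.1, 12.5 and 13.4 CPM on the simultaneous schedule. All delayed libraries were lower, with a change of -0.52 (95% interval -0.93 to -0.11), and 4 of 21 genes of the autophagy and lysosome list lay above 0 (median -0.06). Simultaneous library 1 held the highest value for 9 of the 21, and without it 8 lay above and 13 below 0 (median -0.021). Without both that library and delayed library 2, 9 lay above and 12 below (median -0.009). The autophagy receptor SQSTM1 did not share the lean of the list, at 158, 194 and 157 against 208, 137 and 155 CPM. FBXO32, the ubiquitin ligase atrogin-1 and a FOXO target, had 8.28, 8.93 and 8.27 CPM against 9.94, 12.6 and 13.8 CPM. The groups did not overlap, and the change was -0.51 (95% interval -1.01 to -0.01). The factors FOXO1 (-0.32, 95% interval -0.635 to 0.00) and FOXO3 (-0.17, 95% interval -0.365 to 0.02) had negative changes as well, and 5 of 14 genes of the list lay above 0 (median -0.12).

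Each schedule was also set against elesclomol alone. The delayed combination differed from elesclomol in 7 genes by edgeR's adjusted p (0.0535% of 13085), 1 higher and 6 lower, and the simultaneous combination in 0 (0%, with 1597 genes at an unadjusted p under 0.05). The 2 comparisons share the elesclomol libraries. FBXO32, with 35.5, 25.6 and 25.0 CPM under elesclomol, fell in the delayed group by 1.75 on the log2 scale (95% interval -2.235 to -1.27, edgeR adjusted p = 0.0161), and its log2 change in the simultaneous group was -1.24 (adjusted p = 0.0888). ANKRD37, a gene responsive to hypoxia, had 131, 206 and 181 CPM in the delayed, 139, 163 and 143 CPM in the simultaneous and 87.0, 80.9 and 94.5 CPM in the elesclomol libraries. It rose in the delayed group by 0.98 (edgeR adjusted p = 0.04), and its change in the simultaneous group was 0.76 (adjusted p = 0.104). The other 5 make up the count and were named after their values were seen. FAT1, an atypical cadherin, had 489, 445 and 491 CPM in the delayed, 526, 540 and 520 CPM in the simultaneous and 725, 756 and 719 CPM in the elesclomol libraries. Both combinations lay below elesclomol alone, with changes of -0.63 (edgeR adjusted p = 0.04) and -0.47 (adjusted p = 0.104).

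The death-associated kinase DAPK1 had 82.4, 72.4 and 82.4 CPM in the delayed, 94.7, 83.1 and 113 CPM in the simultaneous and 137, 133 and 129 CPM in the elesclomol libraries. The delayed libraries were the lowest of the 3 groups, and the change between the schedules was -0.29 (95% interval -0.55 to -0.04), the smallest p of the 7 genes in that comparison. The transcription factor STAT4 (-1.81 delayed and -1.36 simultaneous), THEMIS2 (-2.61 and -2.07) and TMEM178B (-1.24 and -0.94) also had negative changes against elesclomol in both combinations. The direct comparison of the schedules called none of the 7 (edgeR adjusted p = 1). The count of 7 depended on single libraries. It was 0 without delayed library 2 or 3 or elesclomol library 1 or 2, 2 without elesclomol library 3, 1 without simultaneous library 3 and 122 without delayed library 1. DESeq2 called 58 genes for the delayed and 53 for the simultaneous combination against elesclomol. With the replicate number as a block, 1 gene was called in each comparison, and it was none of the 7.

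Myeloma identity genes overlapped between the schedules. IRF4, on which myeloma cells depend, had 952, 904 and 857 CPM in the delayed and 815, 986 and 848 CPM in the simultaneous libraries (log2 change 0.03, 95% interval -0.20 to 0.27). SDC1, the plasma cell surface proteoglycan CD138, had 1395, 1090 and 941 CPM against 1104, 1095 and 965 CPM, with delayed library 1 highest. Of 26 myeloma identity genes 13 lay above and 13 below 0 (median 0.008). HDAC9, a histone deacetylase with 44.0, 46.5 and 40.3 CPM under elesclomol alone, had 72.1, 62.8 and 82.0 CPM on the delayed and 86.9, 92.6 and 71.8 CPM on the simultaneous schedule. The ranges overlapped and the change was -0.21 (95% interval -0.55 to 0.13).

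Genes of antigen presentation and adhesion leaned higher. Of 15 MHC class I pathway genes 14 lay above 0 (median 0.105), and delayed library 1 held the highest value for 10 of them. B2M, the light chain of class I, had 1374, 1261 and 1125 CPM against 1255, 1023 and 1055 CPM, with overlap. Without delayed library 1 the list stood at 7 above and 8 below 0, with a median of -0.015. Of 14 adhesion and homing genes 11 lay above 0 (median 0.12). Without delayed library 2 the count was 8 above and 6 below (median 0.077). Without both that library and simultaneous library 1 it was 9 above and 5 below (median 0.04). ICAM2, an integrin ligand, had 30.4, 27.1 and 27.9 CPM against 24.7, 22.5 and 24.7 CPM, without overlap (0.24, 95% interval 0.025 to 0.46). Of the interferon-stimulated genes 9 of 21 lay above 0 (median -0.06), which became 11 (median 0.05) without simultaneous library 2 and 13 (median 0.044) without delayed library 3. In the cholesterol synthesis list, with 13 of 23 above 0 (median 0.019), delayed library 3 held the highest value for 17 genes. Without it 2 lay above and 21 below 0 (median -0.16), and without simultaneous library 1 the count was 9 above and 14 below (median -0.025).

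Genes of the marrow's own cells were low, and those of stroma and bone had higher values on the delayed schedule. Among 10 tested stroma and bone genes 9 lay above 0, with a median of 0.65. SPARC, a matrix protein of bone, had 41.4, 42.0 and 34.1 CPM in the delayed and 27.1, 21.9 and 29.6 CPM in the simultaneous libraries. Its groups did not overlap, with a change of 0.58 (95% interval 0.20 to 0.95). COL1A1, the main collagen of bone, had 9.12, 47.6 and 36.0 CPM against 16.2, 11.1 and 29.1 CPM and overlapped (0.71, 95% interval -0.65 to 2.075). COL6A1 (1.31, 95% interval 0.06 to 2.56) and PDGFRB (0.86, 95% interval 0.025 to 1.69), at 4.92 CPM or less, were the other members with an unadjusted p under 0.05.

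Delayed library 2 held the highest value for 7 of the 10 stroma and bone genes, and without it the median was 0.32. The summed level of the 20 listed genes was 136, 250 and 196 CPM in the delayed and 137, 114 and 161 CPM in the simultaneous libraries. Of the endothelial list 4 genes could be tested, all above 0 (median 0.73), with KDR, the VEGF receptor, at 1.09, 2.92 and 2.84 CPM against 0.442, 0.451 and 0.847 CPM. The groups of KDR were apart, but at low levels of 2.92 CPM or less. Delayed library 2 held the highest value for all 4 genes. The summed level of the list was between 8.37 and 15.6 CPM against between 5.71 and 9.6 CPM, which overlapped. The granulocyte list lay the other way, with 1 of 6 tested genes above 0 (median -0.80). Simultaneous library 2 was high for LTF, lactoferrin, at 12 CPM and for MPO, myeloperoxidase, at 8.27 CPM, where the other 5 libraries were at or below 2.40 and 1.28 CPM, and without that library the median was -0.11.

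TNC, which encodes the matrix protein tenascin C, was the 1 gene called between the schedules when no filter on low counts was applied. It had 26, 106 and 66 counts in the delayed and 16, 8 and 12 counts in the simultaneous libraries, which is 2.18, 9.66 and 5.35 CPM against 1.77, 1.20 and 1.69 CPM. All delayed libraries were higher, with library 2 the highest. Without the filter, over 35074 genes, its log2 change was 1.86 (edgeR adjusted p = 0.00082), and with the filter it was 1.85 (95% interval 0.77 to 2.93, edgeR adjusted p = 1).

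Other lineages gave low counts. The summed erythroid markers lay between 29.9 and 59.3 CPM in the delayed and between 31.3 and 66.6 CPM in the simultaneous libraries, and 3 of the 17 listed genes passed the filter. In the 6 libraries the erythroid genes AHSP and GATA1, the macrophage genes CD163 and MARCO and the platelet gene PF4 were at 0 counts. The summed macrophage markers lay between 17.4 and 77.5 CPM in the delayed and between 23.4 and 31.0 CPM in the simultaneous libraries, and LYZ, lysozyme, at 54.7 CPM in delayed library 2 made up most of the highest value. How mouse reads were handled was not given in the sources used here, and host cells as a cause of the results were not tested. A fit with host marker level as a covariate called 0 genes between the schedules, with 485 at an unadjusted p under 0.05. Over the 28 tested host markers the mean level was 2.24 ± 0.461 log2 CPM (SD, n = 3) in the delayed and 1.99 ± 0.309 log2 CPM (SD, n = 3) in the simultaneous group, with an exact two-sided permutation p of 0.5, where the smallest p that 3 against 3 allows is 0.1.

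The libraries also differed by the GC content of the genes they favoured, and not by schedule. The correlation across genes between GC content and a library's deviation from the mean was 0.494, -0.253 and 0.0839 in the simultaneous and -0.132, 0.315 and -0.0482 in the delayed libraries, which sets simultaneous library 1 and delayed library 2 apart from the rest of their groups. Of the 6 libraries these 2 also had the highest scores on the first principal component, at 37.9 and 27.8, which held 49.7% of the variance over all 15. The means of the GC correlation were 0.0449 and 0.108 for the delayed and the simultaneous group (exact permutation p = 0.8), and mitochondrial DNA took 38.8% and 37.8% of the counts (exact permutation p = 0.7). Adjusted over these 3 library measures, every p was 0.8. Most of the mitochondrial share was the ribosomal RNA MT-RNR2, so it does not describe the 13 protein genes. MT-RNR2 took 33.871%, 37.464% and 37.962% of the counts in the delayed libraries. In the simultaneous libraries it took 37.073%, 34.716% and 34.599%. Without both GC-rich libraries, edgeR called 0 genes between the schedules, with 369 at an unadjusted p under 0.05.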

How the data were processed

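The deposited values are raw read counts per gene, 1 file per library, which the authors made with STAR 2.5.4b, featureCounts 1.6.1 and GRCh37, per the submitters' processing notes. Libraries were stranded total RNA depleted of ribosomal RNA, per the labels' protocols. The strand setting, the annotation release and the handling of mouse reads were not given in the sources used here. Names came from GENCODE 29, which matched 52338 of 57773 identifiers, and the unnamed ones held 1.07% of the counts. Each group had 3 libraries, and nothing beyond that number of tumours was stated of the replicates.

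All 15 libraries were fitted in 1 model with edgeR 4.0.16 (R 4.3.3, TMM normalization, filter at a minimum count of 10, robust quasi-likelihood F test, residual degrees of freedom 10), with a threshold of 0.05 on the Benjamini-Hochberg adjusted p. Intervals are 95%. DESeq2 1.42.0 and limma 3.58.1 served as alternatives, and the scripts were tested on simulated data. The CPM values were computed from the deposited counts. Named genes were the 12 of smallest p at 3 log2 CPM or more, a set given whatever their change, and up to 4 members of smallest p per gene list. A few genes that this rule names are not reported here. Members and lists were chosen with earlier results of these data known, and genes outside that rule were chosen after their values were seen. The main fit did not pair libraries by replicate number. In their deviations from the group means, same-numbered libraries of the schedules correlated at -0.38, -0.663 and 0.584. The highest correlation, 0.706, joined delayed library 2 and simultaneous library 1, the GC-rich ones. These values therefore cannot show whether the numbers pair the libraries. Promoters were RefSeq's (GRCh38.p14), used for sequence only.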

Additional observations from a re-analysis of the deposited data

How the results depend on the processing

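Between the schedules 0 genes were called in 21 of 22 other settings, and 1 without the filter on low counts. With the replicate block the count was 0 (352 at an unadjusted p under 0.05 over 15 libraries, 172 over 6), and leaving out 1 library gave between 286 and 543 at that unadjusted p. Of 31 named genes 14 changed sign in at least 1 setting, as did 29 of 49 list medians. Causes were not tested. The counts against elesclomol used settings chosen after seeing the data. For the delayed combination they were 58 with DESeq2, 270 without the filter, 1 with the replicate block, 2 with a correction for GC content and length, and from 0 to 122 leaving out 1 library. For the simultaneous combination they were 53 with DESeq2, 291 without the filter, 1 with the replicate block, and from 0 to 14 leaving out 1 library. Low counts limited the comparison: under 1 log2 CPM, 17.5% of intervals lay within 2-fold.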
